A study of Homo sapiens with 6 samples.

Results

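The 32 genes described here encode the enzymes that build cholesterol, the regulators of the sterol-sensing transcription factors SREBP1 and SREBP2, and proteins that take up, move, store or export cholesterol. They form a list of named genes, put together with earlier results of these data known. All 32 were among the 58219 genes of the deposited tables, and all 32 were among the 15765 genes that passed the filter on low counts. By role, 8 are enzymes from acetyl-CoA to the isoprenoids and 3 make squalene and turn it into lanosterol, the squalene to lanosterol section. The others are 9 enzymes from lanosterol to cholesterol, 5 genes of SREBP control and 7 of transport and storage.

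The libraries came from U2OS cells, a line grown from a human osteosarcoma and kept in DMEM with fetal bovine serum. Each group has 3 libraries, from cells that expressed a short hairpin RNA (shRNA), scramble in the control group and directed at E4F1 in the other. The shRNA infection lasted 24 h and puromycin selection 48 h in both groups, and polyA RNA was taken at 72 h. The labels speak of 3 independent pools without tying a control pool to an E4F1 shRNA pool, so p-values measure the spread between these pools of 1 cell line.

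Cells make cholesterol from acetyl-CoA. The mevalonate pathway yields isoprenoid diphosphates, which are joined to squalene, closed to lanosterol and then trimmed and rearranged to cholesterol. SREBP2, encoded by SREBF2, is made as a membrane protein of the endoplasmic reticulum (ER). When sterols are scarce, its escort SCAP carries it to the Golgi, where it is cut, and the released part enters the nucleus and switches on the synthesis genes. When sterols are plentiful, the INSIG proteins hold SCAP in the ER, and oxysterols activate the nuclear receptors LXR, which switch on export genes such as ABCA1 and ABCG1.

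Where SREBP2 acts, its binding motif commonly lies near a CCAAT box, the site of the factor NF-Y. The promoters of 5 genes are shown because they span the directions seen below: SREBF2, HMGCS1 and DHCR7 fell, and STARD4 and LBR rose. They are the 250 bases before a RefSeq transcription start on GRCh38.p14, 5′ to 3′ on the gene's strand. The table has 2 windows each for HMGCS1 and DHCR7, and the window not printed holds neither motif. Capitals mark TCACNCCAC, a core of the sterol regulatory element, and ATTGG or its reverse CCAAT. These 5 were picked after the values had been seen.
SREBF2, chr22:41832855-41833104, plus strand: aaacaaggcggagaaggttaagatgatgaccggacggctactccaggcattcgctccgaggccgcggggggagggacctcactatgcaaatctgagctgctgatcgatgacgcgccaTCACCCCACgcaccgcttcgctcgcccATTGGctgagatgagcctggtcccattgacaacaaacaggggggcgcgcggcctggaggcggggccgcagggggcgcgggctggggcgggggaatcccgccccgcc
HMGCS1, chr5:43313413-43313662, minus strand: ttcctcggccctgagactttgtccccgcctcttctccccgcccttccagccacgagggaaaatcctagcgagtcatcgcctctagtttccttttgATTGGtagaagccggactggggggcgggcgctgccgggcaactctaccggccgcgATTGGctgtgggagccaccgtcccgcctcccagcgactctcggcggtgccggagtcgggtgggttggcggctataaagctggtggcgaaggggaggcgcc
DHCR7, chr11:71448394-71448643, minus strand: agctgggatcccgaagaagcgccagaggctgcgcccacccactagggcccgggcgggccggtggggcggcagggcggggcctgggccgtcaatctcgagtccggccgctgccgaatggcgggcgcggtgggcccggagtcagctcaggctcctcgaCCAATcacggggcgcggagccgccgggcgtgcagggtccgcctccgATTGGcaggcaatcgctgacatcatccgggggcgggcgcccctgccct
STARD4, chr5:111512536-111512785, minus strand: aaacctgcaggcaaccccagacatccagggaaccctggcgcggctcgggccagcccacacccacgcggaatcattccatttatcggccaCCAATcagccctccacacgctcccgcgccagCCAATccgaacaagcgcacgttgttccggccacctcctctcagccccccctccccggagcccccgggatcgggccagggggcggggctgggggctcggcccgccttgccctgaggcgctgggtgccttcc
LBR, chr1:225428822-225429071, minus strand: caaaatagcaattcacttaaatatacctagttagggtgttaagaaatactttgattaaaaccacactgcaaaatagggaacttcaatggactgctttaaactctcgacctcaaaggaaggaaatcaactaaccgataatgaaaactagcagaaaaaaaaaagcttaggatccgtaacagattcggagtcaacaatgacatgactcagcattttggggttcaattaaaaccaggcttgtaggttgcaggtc

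RefSeq promoter windows of 300 bases (250 before the start and 50 after) were in the table used for 28 of the 32 genes, as 37 windows, and 5 motifs were searched on both strands. TCACNCCAC was found in 1 of the 37 windows, that of SREBF2, where it begins at position −133 counted from the start as 0. Of all 35116 windows, 1.13% hold it. The shorter CACNCCA, which lies within the longer core, was in 13 of the 37 windows, against 17.6% of all windows.

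ATTGG was in 22 of the 37 windows and in at least 1 window of 20 of the 28 genes, against 34.6% of all windows and 39.7% of all genes in the table. HMGCS1 holds it at positions −155 and −100, DHCR7 at −94 and −48, STARD4 at −161 and −130, and SREBF2 at −106, while neither ABCA1, CYP51A1, INSIG2, LBR, NPC1, PMVK, SCAP nor SREBF1 holds it in this window. The box was found in STARD4, which rose, and in HMGCS1 and DHCR7, which fell. Any part of it in these changes was not tested. GGGCGG, the GC box, was in 33 of the 37 windows, against 45.0% of all windows and 64.3% of those of tested genes. TGACGT, part of the cyclic AMP response element that E4F1 sites are known to resemble, was in 4 of the 37 windows (IDI1, INSIG1, INSIG2 and MVD), against 7.98% of all windows and 10.2% of those of tested genes.

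Reads in genes numbered 14947085 to 16892139 per library. Values are counts per gene scaled to library size as CPM with TMM factors, so that libraries of unequal depth can be compared. E4F1, a zinc finger transcription factor, stood at 15.6, 17.7 and 19.1 CPM in control libraries 1, 2 and 3 and at 3.18, 3.15 and 2.5 CPM in E4F1 shRNA libraries 1, 2 and 3 (log2 fold change −2.57, SE 0.135, edgeR adjusted p = 7.66e-10). The mesenchymal markers VIM, SPARC, COL1A1 and FN1 were high, with 6153 to 6354 CPM summed over 12 markers in control and 5606 to 5820 CPM in E4F1 shRNA libraries. TWIST1 was at 0 in all 6 libraries, and COL1A2 averaged 0.771 and 0.677 CPM. Blood markers summed to 2.41 to 6.99 and 3.03 to 4.52 CPM, and endothelial markers to 3.60 to 4.28 and 3.75 to 3.91 CPM. Epithelial markers summed to 715 to 786 and 743 to 776 CPM, mostly KRT8 and KRT18. The 6 hepatocyte markers summed to 88.6 to 115 and 97.2 to 111 CPM, nearly all SERPINA1.

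Cholesterol synthesis genes were lower after the E4F1 shRNA. Of the 32 genes, 13 fell, 4 rose and 15 did not pass the test, which was edgeR's quasi-likelihood F-test with Benjamini-Hochberg adjustment over all 15765 genes at 0.05. That is 40.6% lower and 12.5% higher, where 14.4% of all tested genes were lower and 14.4% higher. The median log2 fold change, E4F1 shRNA over control, was −0.17 for the 32 genes and −0.01 for all genes tested. In 17 of the 32 every E4F1 shRNA library lay below every control library (21.1% of all tested genes), and in 4 every one lay above (20.7% of all tested genes).

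Most of the falls lay in the synthesis enzymes, and the other 2 were SREBF2 and NPC1. Of the 20 enzymes 11 fell (55.0%) and 1 rose (5.0%), against 14.4% of all tested genes in each direction. Their median log2 fold change was −0.30, and 17 had a negative fold change. Of the 5 genes of SREBP control 1 fell and 1 rose (median 0.01), and of the 7 transport and storage genes 1 fell and 2 rose (median −0.01). In bulk libraries, fewer cells that hold a transcript and less of it per cell cannot be told apart.

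**Figure D1:**
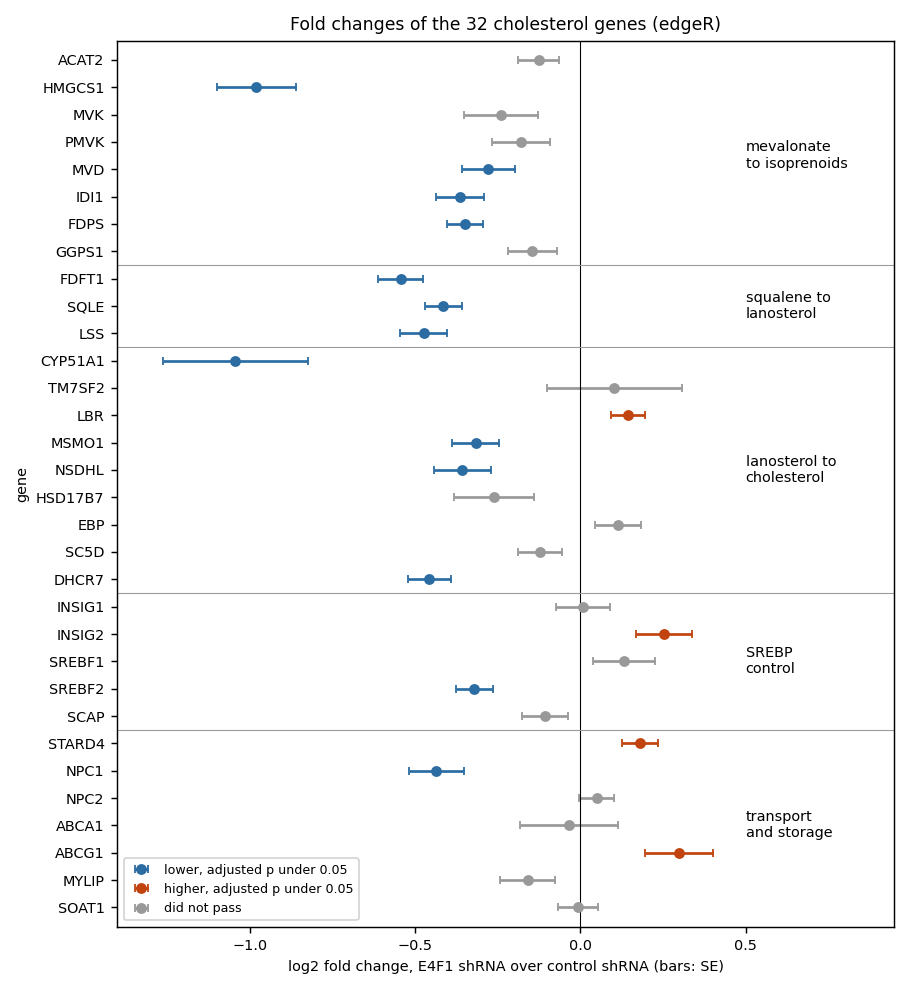
Log2 fold changes (horizontal axis, E4F1 shRNA over control shRNA) of the 32 genes in pathway order, with bars of 1 SE from edgeR, n = 3 libraries per group. Blue points are the 13 that fell, red the 4 that rose and grey the 15 that did not pass. HMGCS1 and CYP51A1 lie near −1, and the 3 squalene to lanosterol enzymes lie between −0.54 and −0.41.

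HMGCS1, the synthase that makes HMG-CoA, fell by 49.3% in mean CPM. It lies on chromosome 5 at 43289395 to 43313512 of GRCh38, minus strand, and had the highest level of the 32 genes per length in control cells, 87.2 CPM per kilobase of exon. Its level was 431, 296 and 503 CPM in control libraries 1, 2 and 3 and 206, 209 and 209 CPM in the E4F1 shRNA libraries. The groups did not overlap, but the control libraries varied 1.70-fold between library 3 and library 2 while the E4F1 shRNA libraries were nearly equal. The log2 fold change was −0.98 (SE 0.119, adjusted p = 1.4e-05), and −1.16 without control library 2.

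Among the other enzymes of the mevalonate section IDI1, FDPS and MVD fell. IDI1 turns isopentenyl diphosphate into its isomer and stood at 41.4, 39.7 and 42.7 CPM in control and 32.8, 33.7 and 29.7 CPM in E4F1 shRNA libraries (log2 −0.36, SE 0.072, adjusted p = 0.00117). FDPS, which joins these units to farnesyl diphosphate, stood at 116, 113 and 120 CPM in control and 88.3, 94.0 and 91.1 CPM in E4F1 shRNA libraries (log2 −0.35, SE 0.054, adjusted p = 0.000152). Both genes had every E4F1 shRNA library below every control library. FDPS has 8 pseudogenes named after it in the annotation, and multimapping reads were left out of the gene counts.

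MVD, the decarboxylase of the mevalonate section, was at 27.0, 26.8 and 27.4 CPM in control and 20.3, 23.2 and 23.4 CPM in E4F1 shRNA libraries (log2 −0.28, SE 0.080, adjusted p = 0.0149). This fall did not pass when E4F1 shRNA library 1, the lowest, was left out (adjusted p = 0.105), nor without control library 1 (adjusted p = 0.0529). The other 4 genes of this section did not pass, although all 4 had negative fold changes. They were the mevalonate kinase MVK (−0.24, adjusted p = 0.122), the phosphomevalonate kinase PMVK (−0.18, adjusted p = 0.137), the acetoacetyl-CoA thiolase ACAT2 (−0.13, adjusted p = 0.146) and GGPS1, the geranylgeranyl diphosphate synthase (−0.14, adjusted p = 0.151). PMVK was at 16.7 to 17.1 CPM in control and 14.7 to 15.2 CPM in E4F1 shRNA libraries, with no overlap, whereas the GGPS1 groups overlapped.

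All 3 enzymes of the squalene to lanosterol section fell. FDFT1 joins farnesyl diphosphate to squalene, the first step that leads to sterols alone, and stood at 191, 170 and 213 CPM in control and 126, 136 and 131 CPM in E4F1 shRNA libraries (log2 −0.54, SE 0.069, adjusted p = 2.14e-05). SQLE, the squalene epoxidase, was at 201, 193 and 212 CPM in control and 160, 150 and 144 CPM in E4F1 shRNA libraries (log2 −0.41, SE 0.057, adjusted p = 4.52e-05). LSS closes the ring to lanosterol and was at 66.1, 66.2 and 72.8 CPM in control and 45.3, 48.4 and 53.9 CPM in E4F1 shRNA libraries (log2 −0.47, SE 0.071, adjusted p = 0.000107). None of the 3 had overlapping groups, and the control libraries of FDFT1 were the most spread, with library 2 lowest.

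From lanosterol to cholesterol, 4 of 9 enzymes fell (44.4%) and 1 rose (11.1%), against 14.4% of all tested genes in each direction. DHCR7, which reduces 7-dehydrocholesterol to cholesterol, was at 69.7, 73.8 and 81.6 CPM in control and 53.6, 55.7 and 54.6 CPM in E4F1 shRNA libraries (log2 −0.46, SE 0.066, adjusted p = 7.21e-05). The sterol methyl oxidase MSMO1 was at 104, 92.9 and 113 CPM in control and 78.4, 88.4 and 81.9 CPM in E4F1 shRNA libraries (log2 −0.32, SE 0.070, adjusted p = 0.00273). NSDHL, which acts with it to remove the methyl groups at carbon C-4, was at 45.8, 42.7 and 52.8 CPM in control and 39.9, 37.5 and 32.9 CPM in E4F1 shRNA libraries (log2 −0.36, SE 0.086, adjusted p = 0.00508). For MSMO1 and NSDHL control library 2 was the lowest control and lay nearest to the E4F1 shRNA libraries, whereas DHCR7 was lowest in control library 1.

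CYP51A1, the lanosterol demethylase, had the most negative fold change of the 32 genes but few reads. It had 45, 46 and 54 reads in control and 30, 20 and 24 reads in E4F1 shRNA libraries, or 3.01, 2.85 and 3.47 against 1.87, 1.19 and 1.46 CPM (log2 −1.04, SE 0.220, adjusted p = 0.00197). The groups did not overlap. Per length it had 0.868 CPM per kilobase in control cells, beside 35.7 for MSMO1. In the annotation 3 pseudogenes carry its name, and whether they affect its counts was not tested.

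LBR and TM7SF2 both encode sterol C14 reductases. LBR, also a lamin receptor of the inner nuclear membrane, rose from 234, 244 and 224 CPM in control to 254, 261 and 261 CPM in E4F1 shRNA libraries (log2 0.14, SE 0.052, adjusted p = 0.0456), which is close to the threshold and did not pass in 7 of 15 alternative analyses. TM7SF2 was far lower, at 1.93 to 2.78 CPM in control and 2.38 to 2.81 CPM in E4F1 shRNA libraries, with overlap (log2 0.10, SE 0.204, adjusted p = 0.744). It overlaps VPS51 on the same strand, and reads in the shared part were counted in neither gene.

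The remaining enzymes of this section did not pass, and their groups overlapped. HSD17B7, the ketosteroid reductase of the demethylation step, had a log2 fold change of −0.26 (adjusted p = 0.12), SC5D, the desaturase, −0.12 (adjusted p = 0.187), and EBP, the isomerase, 0.11 (adjusted p = 0.24). Without control library 2, HSD17B7 and SC5D passed as lower (−0.35, adjusted p = 0.0315, and −0.18, adjusted p = 0.0219). HSD17B7 has 2 named pseudogenes.

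**Figure D2:**
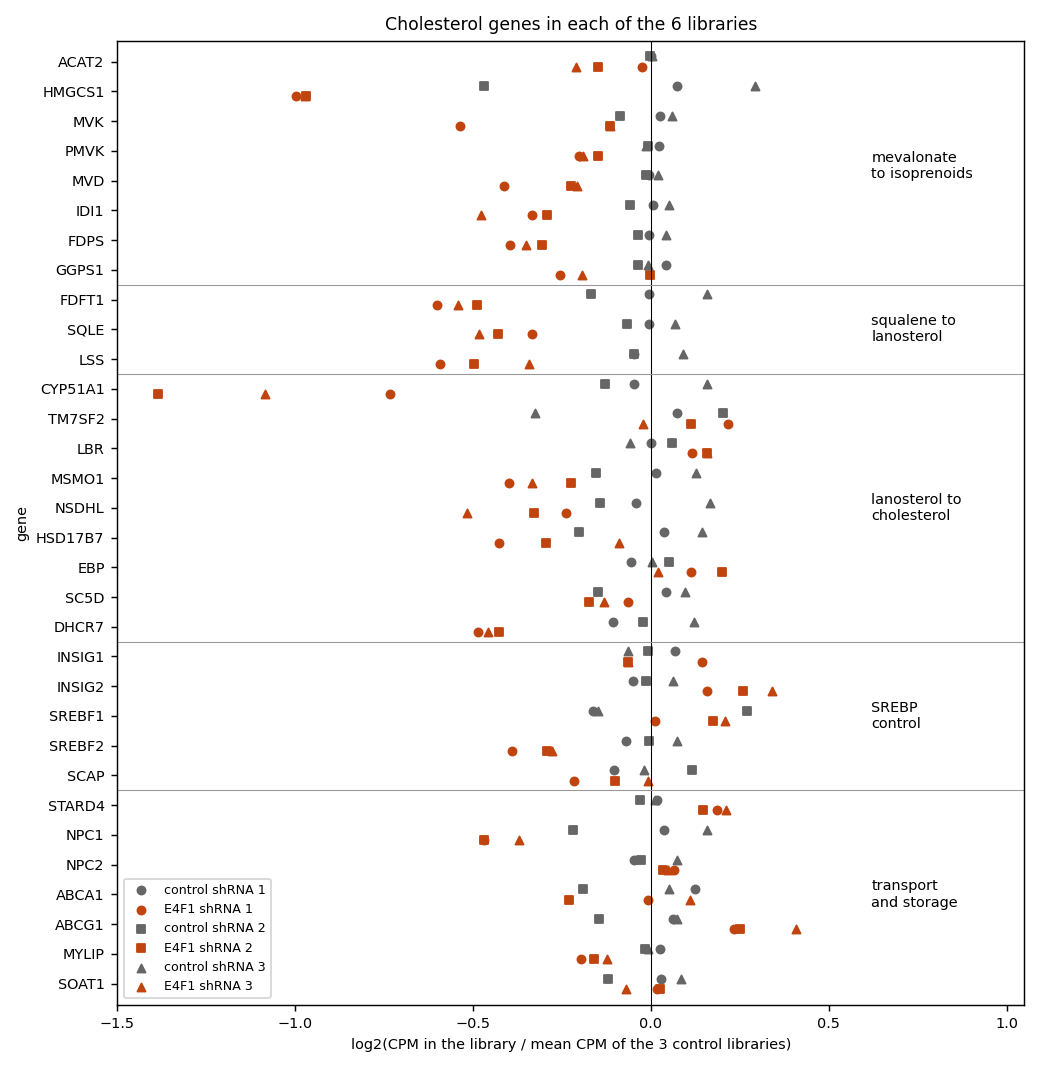
Level of each of the 32 genes in each library, as log2 of its CPM over the mean CPM of the 3 control libraries (horizontal axis). Grey symbols are control and red symbols E4F1 shRNA libraries, with a circle, square or triangle for replicate 1, 2 or 3. The HMGCS1 controls reach from 296 to 503 CPM with library 2 lowest, and the red symbols of the 3 squalene to lanosterol enzymes all lie left of the grey ones.

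SREBF2 fell and SREBF1 did not pass. SREBF2 (chromosome 22, 41833079 to 41907308, plus strand) stood at 178, 186 and 197 CPM in control and 143, 153 and 154 CPM in E4F1 shRNA libraries (log2 −0.32, SE 0.056, adjusted p = 0.000414), with no overlap. SREBF1 encodes SREBP1, which acts more on fatty acid genes, and was at 54.7, 73.8 and 55.2 CPM in control and 61.7, 69.1 and 70.8 CPM in E4F1 shRNA libraries (log2 0.13, SE 0.094, adjusted p = 0.313). Control library 2 was above every E4F1 shRNA library for SREBF1 while the other controls were below them all. Without it SREBF1 passed as higher (log2 0.30, adjusted p = 0.00126), and SREBF2 still passed as lower (−0.31, adjusted p = 0.000155). The genes host the microRNAs MIR33A (SREBF2) and MIR33B (SREBF1), which overlap them on the same strand.

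Of the partners of SREBP in the ER, INSIG2 rose, while INSIG1 and SCAP did not pass. INSIG2 went from 17.7, 18.2 and 19.2 CPM in control to 20.5, 21.9 and 23.3 CPM in E4F1 shRNA libraries, with no overlap (log2 0.25, SE 0.085, adjusted p = 0.0331), and did not pass by DESeq2 (adjusted p = 0.0743), nor without control library 1 (0.0927), E4F1 shRNA library 2 (0.0922) or E4F1 shRNA library 3 (0.112). INSIG1, itself known as a SREBP target, was at 24.7 to 27.0 CPM in control and 24.7 to 28.5 CPM in E4F1 shRNA libraries (log2 0.01, 95% interval −0.15 to 0.17, adjusted p = 0.953). SCAP, the escort, was at 73.5 to 85.6 and 67.9 to 78.5 CPM (log2 −0.11, 95% interval −0.24 to 0.03, adjusted p = 0.268). The interval of INSIG1 did not reach that of HMGCS1, which was −1.21 to −0.75. Among the genes that fell, only MVD had an interval that overlapped that of INSIG1 (−0.44 to −0.12 for MVD). These intervals come from the fit with group as the only term and are narrower than the F-test would give. Whether SREBP activity changed was not tested.

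Among transport genes NPC1, which moves cholesterol out of lysosomes, fell. It was at 57.5, 48.2 and 62.5 CPM in control and 40.5, 40.4 and 43.3 CPM in E4F1 shRNA libraries (log2 −0.44, SE 0.082, adjusted p = 0.000824), without overlap and with control library 2 lowest of the controls. NPC2, its soluble partner that hands cholesterol over, was at 117, 118 and 127 CPM in control and 126, 123 and 125 CPM in E4F1 shRNA libraries, with overlap (log2 0.05, 95% interval −0.06 to 0.15, adjusted p = 0.531).

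STARD4 and ABCG1 rose. STARD4, a cytosolic carrier of cholesterol between membranes that is itself known as a SREBP target, was at 77.0, 74.6 and 76.8 CPM in control and 86.5, 84.3 and 88.2 CPM in E4F1 shRNA libraries (log2 0.18, SE 0.055, adjusted p = 0.0197), with no overlap. The exporter ABCG1 was at 12.6, 10.9 and 12.7 CPM in control and 14.2, 14.4 and 16.0 CPM in E4F1 shRNA libraries (log2 0.30, SE 0.102, adjusted p = 0.0362), also with no overlap. Neither call was kept throughout: STARD4 did not pass without E4F1 shRNA library 1 or 3 (adjusted p = 0.0558 and 0.0547). ABCG1 did not pass by DESeq2 (adjusted p = 0.0846), nor when control library 1, control library 2, E4F1 shRNA library 2 or E4F1 shRNA library 3 was left out, with adjusted p from 0.0514 to 0.123.

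The other 3 genes of this group did not pass. ABCA1, the exporter to lipid-poor apolipoproteins, had the lowest level of the 32 genes per length in control cells, 0.498 CPM per kilobase, and overlapping groups (log2 −0.03, 95% interval −0.32 to 0.26). SOAT1, which esterifies cholesterol for storage, was at 106 to 122 CPM in control and 110 to 117 CPM in E4F1 shRNA libraries (log2 −0.01, 95% interval −0.13 to 0.11). MYLIP, a ubiquitin ligase that marks lipoprotein receptors for breakdown and an LXR target, was at 18.9 to 19.4 CPM in control and 16.7 to 17.5 CPM in E4F1 shRNA libraries. Its groups did not overlap (log2 −0.16, adjusted p = 0.17).

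Cell cycle genes moved with the groups. Of 30 DNA replication genes 17 rose (56.7%) and 0 fell, and of 28 mitosis genes 19 rose (67.9%) and 0 fell, against 14.4% of all tested genes in each direction. A score, the mean log2 CPM of both lists, was 6.98, 7.19 and 6.87 in control libraries 1, 2 and 3 and 7.32, 7.31 and 7.20 in the E4F1 shRNA libraries. Control library 2 lay nearest to the E4F1 shRNA libraries in this score, and also in the mean level of the 20 synthesis enzymes. That mean, relative to the average of all 6 libraries, was 0.16, 0.08 and 0.22 on the log2 scale in control and −0.17, −0.13 and −0.16 in E4F1 shRNA libraries.

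The score was computed from these same libraries, and its groups did not overlap (highest control value 7.19, lowest E4F1 shRNA value 7.20). A fit with both terms therefore cannot fully tell the score and the shRNA apart, here or in the lists below. Whether the shRNA itself shifts the score was not tested. With the score as a further term in the fit, 7 of the 32 genes were lower, against 2.55% of all tested genes, and 1 was higher, against 3.79%. The 7 were HMGCS1, FDPS, FDFT1, SQLE, LSS, DHCR7 and SREBF2, and the higher one was ABCG1 (log2 0.52, adjusted p = 0.044). HMGCS1 then had a log2 fold change of −0.39 (SE 0.0893, adjusted p = 0.00631), against −0.98 without the score. The other 6 falls were also less negative: FDFT1 went from −0.54 to −0.31, LSS from −0.47 to −0.33, DHCR7 from −0.46 to −0.37, SQLE from −0.41 to −0.35, FDPS from −0.35 to −0.29 and SREBF2 from −0.32 to −0.26, with adjusted p from 0.00592 for SQLE to 0.0459 for SREBF2. NPC1 (−0.13, adjusted p = 0.494) and MSMO1 (−0.12, adjusted p = 0.502) no longer passed. The same held for IDI1 (adjusted p = 0.0663), CYP51A1 (0.16), MVD (0.329) and NSDHL (0.349), and for the rises of STARD4 (0.107), INSIG2 (0.135) and LBR (0.648). Their fold changes kept their sign. The weakest log2 fold change in any of the 15 alternatives was −0.31 for IDI1, −0.86 for CYP51A1, −0.21 for MVD and −0.21 for NSDHL. For the rises it was 0.17 for STARD4, 0.21 for INSIG2 and 0.07 for LBR. Without control library 2, 15 of the 32 genes were lower (15.8% of all tested genes) and 4 higher (17.6%).

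**Figure D3:**
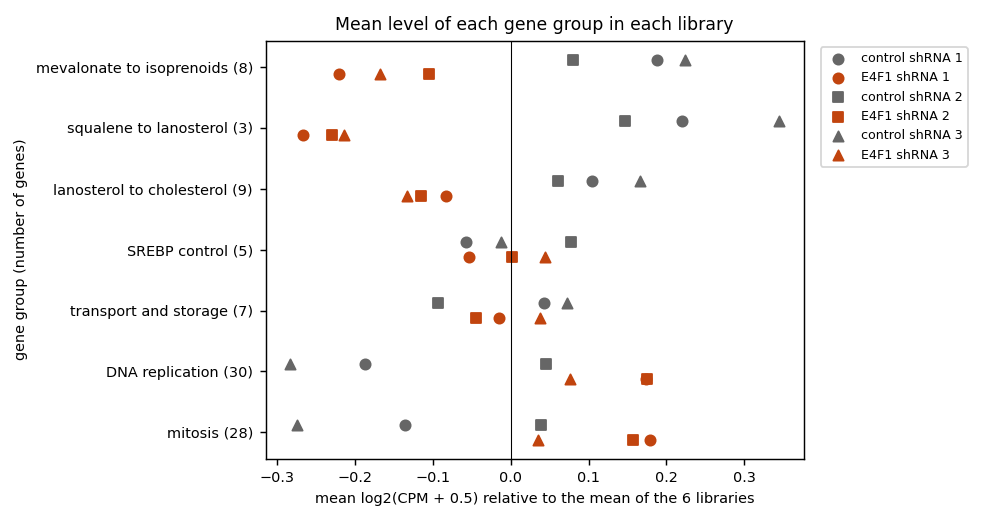
Mean level of each gene group in each library, as the mean of log2(CPM + 0.5) relative to the average of the 6 libraries (horizontal axis), with the number of genes in brackets. Grey symbols are control and red E4F1 shRNA libraries. The 3 synthesis groups are higher in every control library, and the DNA replication and mitosis lists are lowest in control libraries 1 and 3. Control library 2 (0.05 and 0.04) lies near E4F1 shRNA library 3 (0.08 and 0.03) in these lists.

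Around the 32 genes, 7 lists of related genes with 99 entries showed mixed directions. Their counts stand against 14.4% higher and 14.4% lower among all tested genes. In SREBP processing and ER turnover 5 of 12 rose (41.7%) and 1 fell (8.33%). ERLIN1, an ER protein that restrains SREBP activation, was at 104, 109 and 93.9 CPM in control and 154, 149 and 148 CPM in E4F1 shRNA libraries (log2 0.55, SE 0.059, adjusted p = 3.67e-06), and its partner ERLIN2 rose by a log2 of 0.45 (adjusted p = 6.12e-05). Of the membrane ubiquitin ligases RNF139 rose (0.21, adjusted p = 0.0106) and RNF145 fell (−0.20, adjusted p = 0.00859). With the cell cycle score ERLIN1 (0.40, adjusted p = 0.00137) and ERLIN2 (0.53, adjusted p = 0.000748) still passed, and RNF139 (0.09, adjusted p = 0.578) and RNF145 (−0.12, adjusted p = 0.4) did not. RNF139 also did not pass without control library 3 (adjusted p = 0.0524), nor RNF145 without control library 1 (adjusted p = 0.0585).

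Among 10 accessory genes of sterol synthesis 1 rose and 1 fell, 10.0% each way, which is below the share over all tested genes. PGRMC1, a heme protein that binds sterol-making cytochrome P450 enzymes, rose by a log2 of 0.39 (adjusted p = 0.000109), its relative PGRMC2 did not pass (0.06, adjusted p = 0.49), and the reductase CYB5R3 fell (−0.17, adjusted p = 0.0261). ACAT1, the mitochondrial thiolase, did not pass (−0.16, adjusted p = 0.0652), but did without control library 2 (−0.19, adjusted p = 0.0229). With the cell cycle score PGRMC1 had 0.26 (adjusted p = 0.0486). CYB5R3 did not pass in 6 of 15 alternatives: the cell cycle score (adjusted p = 0.104), no filter on low counts (0.0583), and without control library 2 (0.0677), control library 3 (0.0786), E4F1 shRNA library 2 (0.1) or E4F1 shRNA library 3 (0.0892).

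In the branches that use isoprenoids 2 of 13 rose and 2 fell, 15.4% each way, which is near the share over all tested genes. PDSS2, a subunit of the enzyme that makes the side chain of coenzyme Q, was at 13.1, 14.0 and 13.9 CPM in control and 6.68, 7.97 and 6.59 CPM in E4F1 shRNA libraries (log2 −0.95, SE 0.113, adjusted p = 1.1e-05). COQ2, which attaches that side chain, rose (0.33, adjusted p = 0.00784). NUS1, of the dolichol branch, also rose (0.25, adjusted p = 0.00641), and RABGGTA, of the Rab prenyltransferase, fell (−0.39, adjusted p = 0.0172). With the cell cycle score PDSS2 (adjusted p = 0.000349) and NUS1 (0.33, adjusted p = 0.0377) still passed, and COQ2 (0.11, adjusted p = 0.655) and RABGGTA (−0.33, adjusted p = 0.317) did not. RABGGTA also did not pass without control library 3, E4F1 shRNA library 2 or E4F1 shRNA library 3 (adjusted p = 0.0738, 0.104 and 0.0606).

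Of 20 genes of intracellular sterol transfer 7 rose (35.0%) and 2 fell (10.0%). LIPA, the lysosomal acid lipase that frees cholesterol from lipoprotein esters, rose from 43.2, 35.3 and 40.9 CPM to 60.3, 56.3 and 52.4 CPM (log2 0.50, SE 0.078, adjusted p = 0.000154), opposite in sign to NPC1 of the same organelle. The oxysterol-binding relatives OSBPL8 (0.45, adjusted p = 1.23e-05) and OSBPL6 (0.47, adjusted p = 0.000544) rose, and TSPO of the outer mitochondrial membrane fell (−0.57, adjusted p = 0.00048). In the fit with the score, LIPA (0.61, adjusted p = 0.00111) and OSBPL8 (0.44, adjusted p = 0.000612) still passed, and OSBPL6 (0.27, adjusted p = 0.207) and TSPO (−0.29, adjusted p = 0.205) did not.

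Of 13 lipoprotein receptor and endocytosis genes 2 rose (15.4%) and 5 fell (38.5%). VLDLR, a receptor for triglyceride-rich lipoproteins, rose from 30.4, 33.6 and 29.4 CPM to 53.2, 53.7 and 56.6 CPM (log2 0.81, SE 0.070, adjusted p = 3.24e-07). SCARB1, the high-density lipoprotein receptor, fell (−0.37, adjusted p = 0.00143), as did the receptor LRP1 (−0.24, adjusted p = 0.00642) and its chaperone LRPAP1 (−0.26, adjusted p = 0.00508). With the cell cycle score VLDLR still passed (0.71, adjusted p = 4.14e-05), and SCARB1 (−0.09, adjusted p = 0.592), LRP1 (−0.13, adjusted p = 0.382) and LRPAP1 (−0.13, adjusted p = 0.42) did not. LRP1 also did not pass without E4F1 shRNA library 1 (adjusted p = 0.0614).

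For LXR, oxysterols and cholesterol esters 12 of 16 listed genes could be tested, of which 5 rose (41.7%) and 2 fell (16.7%). LPCAT3, a phospholipid acyltransferase and LXR target, rose from 25.2, 31.6 and 26.5 CPM to 58.2, 57.6 and 51.6 CPM (log2 1.01, SE 0.083, adjusted p = 1.98e-07). NCEH1, a cholesterol ester hydrolase, rose (0.55, adjusted p = 8.66e-05), as did the coregulators NCOR1 (0.26, adjusted p = 0.00206) and NCOA1 (0.19, adjusted p = 0.0174). Of those among the 32 genes that are described above as LXR targets, ABCG1 rose, while ABCA1 and MYLIP did not pass. Once the cell cycle score was in the fit, LPCAT3 (0.74, adjusted p = 2.99e-05) and NCEH1 (0.69, adjusted p = 0.000413) still passed, and NCOR1 (0.15, adjusted p = 0.281) and NCOA1 (0.20, adjusted p = 0.204) did not. NCOA1 also did not pass without E4F1 shRNA library 1 (adjusted p = 0.0772).

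Of 14 tested genes listed as SREBP1 targets, mostly of fatty acid and lipid metabolism, 3 rose (21.4%) and 7 fell (50%). TMEM97 is on this list and also among the accessory genes. FASN, the fatty acid synthase, fell from 401, 424 and 457 CPM to 265, 309 and 331 CPM (log2 −0.50, SE 0.071, adjusted p = 6.1e-05), with ACACA, the acetyl-CoA carboxylase before it (−0.21, adjusted p = 0.00615), and the elongase ELOVL1 (−0.34, adjusted p = 0.000785). The elongase ELOVL5 rose (0.62, SE 0.060, adjusted p = 1.27e-06), with 257 to 284 CPM in E4F1 shRNA and 165 to 189 CPM in control libraries. In the fit with the cell cycle score, FASN (−0.38, adjusted p = 0.00911) and ELOVL5 (0.44, adjusted p = 0.000292) still passed, and ACACA (−0.15, adjusted p = 0.266) and ELOVL1 (−0.20, adjusted p = 0.181) did not. ACACA also did not pass without control library 1 (adjusted p = 0.0534).

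**Figure D4:**
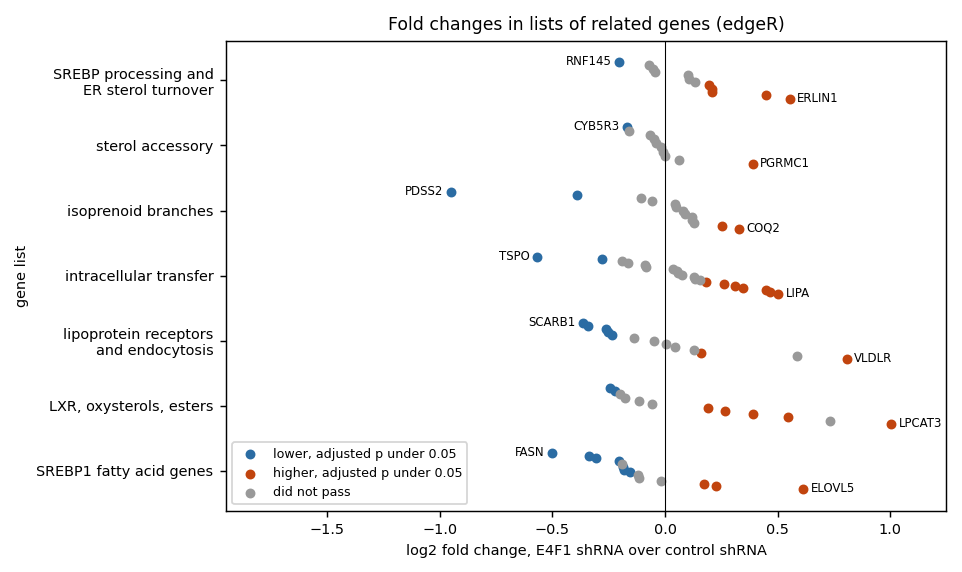
Log2 fold changes (horizontal axis, E4F1 shRNA over control shRNA, edgeR, n = 3 libraries per group) of the genes tested in 7 lists of related genes. Each point is a gene, blue if it fell, red if it rose and grey if it did not pass. PDSS2 at −0.95 and LPCAT3 at 1.01 are the extremes.

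The 7 bases CTTATCT in 3′ untranslated regions (UTRs) were looked up because the genes that hold them were already known to rise more often in these libraries: 38.6% of the tested genes with them were higher, against 13.8% of those without. Genes with the heptamer also had longer UTRs, with a median of 3376 bases against 1239.5. In the longest annotated UTR of each gene, 4 of the 32 cholesterol genes (12.5%) hold the heptamer, against 11.6% of all tested genes with a UTR. Of these 4, CYP51A1 and LSS fell, STARD4 rose and SOAT1 did not pass. The sites are shown with 11 bases on each side and the heptamer in capitals, as DNA letters of the transcript.
CYP51A1: ttaggaatcaaCTTATCTcaaattgtaac
LSS: ccctatacctcCTTATCTgctcttcccct
STARD4: ggtgtccaagaCTTATCTtgagactctta
SOAT1: attttatgtatCTTATCTctaggctttat

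In the 7 lists of related genes, ERLIN2, LIPA, LPCAT3, NCOA1, NUS1, OSBPL1A and VLDLR hold the heptamer and rose, and ACSL4 holds it and fell (−0.19, adjusted p = 0.0401). Of all tested genes with the heptamer, 38.6% were higher and 8.07% lower. The lists were chosen with earlier results of these data known, so the split within them is not a result about them. The part of this heptamer in the results was not tested.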

How the data were processed

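Each library has a deposited table of raw counts, with 1 column that ignores strand and 1 for each strand. Reads were handled by the authors with bcl2fastq 2.20 and STAR 2.5.1b on GRCh38, per the submitters' processing notes. Which annotation release they used is not given in those sources. The reverse-strand column was used. Lines for reads assigned to no gene, such as unmapped, multimapping and ambiguous reads (27.1% to 31.7% of each table) stayed out of library sizes and tests.

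Gene names came from GENCODE 29, which matched 57881 of 58219 identifiers without version. Counts were filtered with filterByExpr, scaled by TMM and tested with edgeR 4.0.16 (R 4.3.3, two-sided quasi-likelihood F-test, group as the only term). P-values were adjusted by Benjamini-Hochberg over 15765 genes. The SE is the absolute log2 fold change over the square root of F. The 95% intervals multiply this SE by the factor of a normal distribution, so they are narrower than the F-test would give. Genes per length use the summed exon length.

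The 32 genes and all lists were chosen with earlier results of these data known. From each of the 7 related lists the 4 genes with the smallest adjusted p are named. Alternatives were DESeq2 1.42.0, its size factors, library totals, limma-voom (limma 3.58.1), other filters (none, or 1 CPM in 3 libraries), a replicate block, counts ignoring strand, a cell cycle covariate and leaving out each library. Some genes of the pathway are not reported here.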

Additional observations from a re-analysis of the deposited data

How the results depend on the processing

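Of 480 values (32 genes under 15 alternatives), 432 kept their direction and side of the threshold, 28 no longer passed, 3 newly passed and 17 changed sign. HMGCS1, FDPS, FDFT1, SQLE, LSS, DHCR7 and SREBF2 stayed lower in all 15, and 0 of the 4 rises passed in all. The number of genes higher was 2 by DESeq2, and with the cell cycle score 7 were lower and 1 higher. Leaving out each library gave 12 to 15 lower and 0 to 4 higher. The 0 arose without E4F1 shRNA library 3. Only 1 rise passed when control library 1 was left out, and likewise when E4F1 shRNA library 2 was. The cause was not tested. Sign changes occurred in genes that had not passed. SOAT1 had 0.0034 by DESeq2 and 0.0044 with no filter. With the score, the log2 fold change was −0.28 for TM7SF2, 0.08 for HSD17B7, 0.0513 for SC5D, −0.0569 for INSIG1, −0.13 for SREBF1, 0.23 for ABCA1 and 0.11 for SOAT1. Leaving out libraries gave −0.11 to 0.0583 for ABCA1, −0.056 to 0.0362 for SOAT1, −0.0368 to 0.23 for TM7SF2, and −0.0553 to 0.0553 for INSIG1. Of the related genes named, PGRMC2 also changed sign, with −0.0593 with the score and −0.0021 to 0.11 when leaving out libraries.

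With the replicate number as a block, 13 genes were lower and 4 higher. Libraries with the same number did not deviate together (r = 0.007, 0.047 and 0.048 over genes), so the numbers were not taken as pairs. CYP51A1, TM7SF2 and ABCA1 had the fewest reads, and depth limits their values.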
